A study of Homo sapiens with 6 samples.

Results

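MHC class I antigen presentation was examined through 9 genes of the deposited tables, of 58735 genes in all, which were taken by an exact match of the gene name: HLA-B, HLA-C, HLA-E, B2M, TAP1, TAP2, TAPBP, PSMB8 and PSMB9. The comparison was between C4-2B, a castration resistant prostate cancer (CRPC) cell line, and RC4-2B, which was derived from it by rounds of cabazitaxel (CBZ, a taxane that blocks microtubule depolymerization) lasting 72 h each, at 0.1 nM at first and 20 nM at last, over 4 months. RC4-2B is 1 subclone, so resistance and other traits of that subclone cannot be told apart. Each cell line was sequenced by RNAseq as 3 biological replicates, grown according to the labels in RPMI-1640 with 10% FBS. The study's methods also name charcoal-stripped serum and growth for 72 h before RNA isolation, and they name no drug for that time. The comparison was made to learn how the resistant cells differ in their transcriptome.

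MHC class I molecules show peptides from inside a cell to CD8 T cells and natural killer cells. The proteasome cuts proteins into peptides, and the immunoproteasome subunits PSMB8 and PSMB9 replace the constitutive subunits PSMB5 and PSMB6 where they are made. TAP1 and TAP2 form the pump that carries peptides into the endoplasmic reticulum, TAPBP (tapasin) holds the pump next to the empty class I molecule, and each class I molecule pairs a heavy chain, here HLA-B, HLA-C or HLA-E, with the light chain B2M. Interferons induce the whole set, and loss of class I is common in prostate tumours.

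Counts summed to between 15707134 and 18052517 per library, so that 3 counts, taken as the floor of detection, stood at 0.170 to 0.188 CPM (a count relative to the TMM-scaled size of its library). This floor covers counting error alone. All 9 genes passed the filter on low counts, and 15054 genes entered the quasi-likelihood test of edgeR, with p-values adjusted by Benjamini and Hochberg. RC4-2B replicate 2 stood apart from the other libraries. Across 11241 genes with an average log2 CPM over 2, its difference from RC4-2B replicates 1 and 3 followed transcript GC content, with a Spearman correlation of -0.73, a description across genes of the same libraries, which are not independent. Values without this library stand beside the results whose call or direction it changed, and beside larger shifts.

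Many class I presentation promoters carry short GAAA repeats that interferon regulatory factors are known to bind, and the 6 members that held such a repeat are shown to make this shared element visible. They were taken from RefSeq promoters (GRCh38.p14), which held 8 of the 9 members, HLA-E being the exception. Each run has 30 bases, is written 5′ to 3′ on the strand that reads GAAA, and has the matched element in capitals. The element searched was the interferon-stimulated response element core, 2 copies of GAAA with any 2 bases between them, on both strands in the 250 bases before the transcription start, and for HLA-B and HLA-C, which lack it, the shorter GAANNGAAA, chosen after the promoters were seen. Overlapping matches were merged. The windows lie at chr6:31357316-31357345 (HLA-B), chr6:31272225-31272254 (HLA-C), chr15:44711366-44711395 (B2M), chr6:32853816-32853845 (TAP1), chr6:32838778-32838807 (TAP2) and chr6:33314079-33314108 (TAPBP). The plus strand is shown for HLA-B, HLA-C, B2M and TAP1, and the minus strand for TAP2 and TAPBP. The runs of TAP1 and TAPBP lie before the RefSeq start but inside the deposited spans of these genes.
HLA-B: gttgggagaaGAAGTGAAActcaggggagt
HLA-C: caggttgggaGAAGTGAAActcaggggagt
B2M: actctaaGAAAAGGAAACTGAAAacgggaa
TAP1: tttagggGAAAGCGAAATCGAAAgcggccg
TAP2: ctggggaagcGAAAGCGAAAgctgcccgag
TAPBP: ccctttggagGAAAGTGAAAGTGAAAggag

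The longer element was found in 3.02% of all 35116 RefSeq promoter windows and the shorter one in 6.56%. HLA-B and HLA-C held the same 9 letters, 155 and 151 bases before their starts. Their whole 250-base windows were identical at 91.9% of 246 aligned positions. B2M, TAP1 (in 1 of its 2 windows) and TAPBP each held 2 overlapping copies of the longer element and TAP2 held 1, while the windows of PSMB8 and PSMB9 held neither element. The run shown for TAP1 lies between the RefSeq starts of TAP1 and PSMB9, outside the window searched for PSMB9. The gamma-activated sequence TTCNNNGAA, found in 6.57% of all windows, was present in 1 of the 2 windows of TAP1 and in 1 of the 2 windows of PSMB8. The CRE core TGACG was present in the windows of HLA-B, HLA-C, B2M, TAP2, PSMB8 (1 of 2) and PSMB9, against 21.2% of all windows. The Y box CCAAT, in 32% of all windows, was found in those of HLA-B, HLA-C, B2M, TAP1 (1 of 2) and PSMB9. The kappaB-like GGGNNTTCC, in 5.78%, was found for HLA-B, TAPBP and PSMB8 (1 of 2 windows). The GC box GGGCGG, in 42.6%, was found for HLA-C, TAP1 (both windows), TAP2, TAPBP and PSMB9. These matches describe letters only.

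None of the 9 genes had an adjusted p-value under 0.05 (0 higher and 0 lower in RC4-2B, edgeR's quasi-likelihood test), against 1.98% of all genes tested (1.08% higher and 0.903% lower). At an unadjusted p-value under 0.05 the count was 1 of 9, TAP1, which was lower in RC4-2B, against 21.4% of all genes in either direction and 9.42% lower, and DESeq2 likewise called 0 of 9, against 5.93% of the genes it adjusted. Their log2 fold changes had a median of -0.052, beside 0.0063 for all genes tested. In 8 of the 9 genes the CPM values of both cell lines overlapped, and only for TAP1 did they not. Groups that do not overlap were found for 34.1% of all genes tested, 17.0% with RC4-2B above and 17.1% with RC4-2B below.

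**Figure D1:**
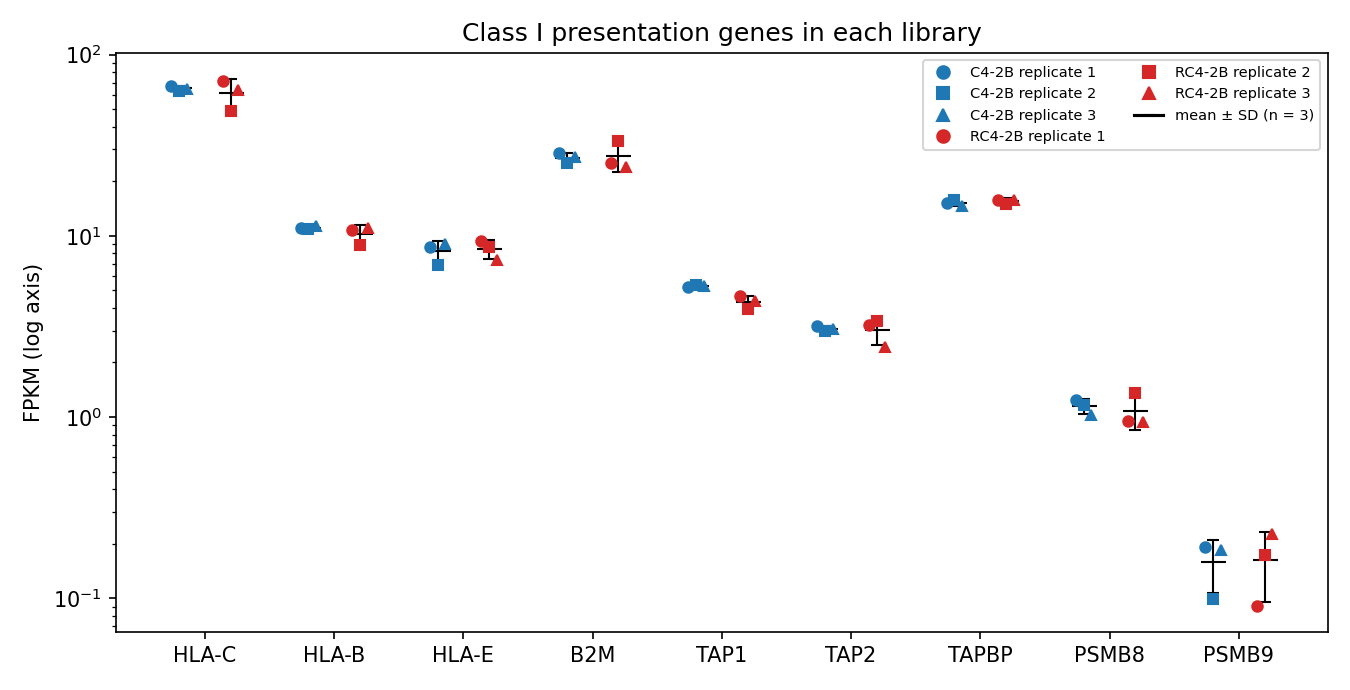
FPKM of the 9 class I presentation genes (x axis) on a log axis (y axis) in each of the 3 C4-2B (blue) and 3 RC4-2B (red) libraries, with the mean and SD in black (n = 3). By mean FPKM, which depends on the deposited gene lengths, the order of the genes is the same in both cell lines. It runs from HLA-C near 65.1 FPKM to PSMB9 near 0.158 FPKM in C4-2B. Only the TAP1 points separate by cell line.

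Of the 3 heavy chains described here, HLA-C (ENSG00000204525, chr6:31268749-31272130, minus strand of GRCh38 as deposited) was the most abundant. C4-2B gave counts of 3154, 3147 and 3159 (replicates 1, 2 and 3, an order kept for all genes), while RC4-2B gave 3210, 2299 and 3025. RC4-2B replicate 2 was the low one, while RC4-2B replicate 1 was the highest in CPM, so the groups overlapped. HLA-C stood at 182 ± 5.36 CPM in C4-2B against 170 ± 35.5 in RC4-2B (SD, n = 3), so that the log2 fold change was -0.10 with a 95% interval of -0.45 to 0.25 (adjusted p = 0.71, edgeR). Without RC4-2B replicate 2 the sign turned, to 0.055. With a correction for GC content the log2 fold change was 0.28 (95% interval 0.059 to 0.50, unadjusted p = 0.018, adjusted p = 0.11, edgeR). HLA-C thus had no stable direction.

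HLA-B (ENSG00000234745) presents peptides as HLA-C does. Its counts were 630, 660 and 677 in C4-2B, against 589, 510 and 637 in RC4-2B. RC4-2B replicate 2 was again the lowest, and replicate 3 of RC4-2B lay among the C4-2B libraries. The level was 37.8 ± 0.622 CPM in C4-2B against 34.4 ± 4.66 in RC4-2B (SD, n = 3), so that the log2 fold change was -0.14 (95% interval -0.44 to 0.17, adjusted p = 0.54, edgeR), and -0.027 without RC4-2B replicate 2. The span deposited for HLA-B, chr6:31269491-31357188, covers 2640 bases of HLA-C, whereas both spans share 0 bases in GENCODE release 44, and how reads in the shared bases were counted is not named in the sources.

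HLA-E (ENSG00000204592, chr6:30489467-30494205), a heavy chain recognised by natural killer cells through NKG2 receptors, had counts of 486, 407 and 523 in C4-2B, against 498, 484 and 413 in RC4-2B. The lowest value came from C4-2B replicate 2 and the groups overlapped. The level was 27.3 ± 3.68 CPM in C4-2B against 27.7 ± 3.44 in RC4-2B (SD, n = 3), so that the log2 fold change was 0.021 (95% interval -0.33 to 0.38, adjusted p = 0.95, edgeR).

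Class I heavy chains resemble each other, and reads that map to several genes may have been dropped or split. Of the 50-base stretches of the main transcript in GENCODE release 44, 2.56% in HLA-B, 6.76% in HLA-C and 6.16% in HLA-E also occurred in a transcript of another gene. For TAP2 this share was 35.3%, while for B2M, PSMB8 and PSMB9 it was 0%. How such reads were counted is not named in the sources, and the part of this in the values was not tested.

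B2M (ENSG00000166710, chr15:44711487-44718877), the light chain of every class I molecule, is the only member outside chromosome 6. Its counts were 3249, 3049 and 3211 in C4-2B, against 2735, 3781 and 2735 in RC4-2B. RC4-2B replicate 2 was the highest of the 6 libraries, and RC4-2B replicates 1 and 3 were the lowest. The means were 183 ± 10.6 CPM and 182 ± 29.2 CPM (SD, n = 3), so that the log2 fold change was -0.0052 (95% interval -0.31 to 0.30, adjusted p = 0.98, edgeR). Without RC4-2B replicate 2 it was -0.14 (95% interval -0.32 to 0.032, adjusted p = 0.28), and with the GC correction -0.21 (adjusted p = 0.22).

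TAP1 (ENSG00000168394, chr6:32845209-32853978) had the largest difference of the 9 in the fit with all libraries and no GC correction, while PSMB8 exceeded it without RC4-2B replicate 2, and HLA-C, B2M, TAPBP and HLA-E did with the GC correction. Its counts were 469, 508 and 493 in C4-2B, against 398, 354 and 396 in RC4-2B, which is 28.0, 28.8 and 28.1 CPM against 24.9, 20.2 and 23.3 CPM. All 3 RC4-2B libraries lay below all 3 C4-2B libraries, and replicate 2 was the lowest. The means were 28.3 ± 0.429 CPM and 22.8 ± 2.39 CPM (SD, n = 3), so that the log2 fold change was -0.31 (standard error 0.13, 95% interval -0.61 to -0.015, unadjusted p = 0.042, adjusted p = 0.22, edgeR's quasi-likelihood test). The adjusted value did not pass the threshold. Without RC4-2B replicate 2 the log2 fold change was -0.23 (adjusted p = 0.16, edgeR). With the GC correction it was -0.13 (95% interval -0.36 to 0.093, unadjusted p = 0.22, adjusted p = 0.44, edgeR).

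TAP2 (ENSG00000204267, chr6:32821833-32838780), the partner of TAP1 in the peptide pump, had counts of 379, 377 and 381 in C4-2B, against 367, 407 and 292 in RC4-2B. Here RC4-2B replicate 3 was the low library and replicates 1 and 2 lay slightly above C4-2B in CPM. The log2 fold change was -0.052 (95% interval -0.40 to 0.30, adjusted p = 0.85, edgeR), and -0.13 without RC4-2B replicate 2.

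TAPBP (ENSG00000231925, chr6:33299694-33314387) holds the peptide pump beside the empty class I molecule. Its counts were 1443, 1584 and 1442 in C4-2B, against 1433, 1416 and 1510 in RC4-2B, with RC4-2B replicate 2 the lowest in CPM. The level was 86.0 ± 3.80 CPM in C4-2B against 86.3 ± 4.89 in RC4-2B (SD, n = 3). The 95% interval of its log2 fold change, -0.24 to 0.25, was the narrowest of the 9 in this fit and corresponds to 0.848 to 1.19 times the C4-2B level. With the GC correction the log2 fold change was 0.19 (95% interval -0.039 to 0.41, adjusted p = 0.28), and without RC4-2B replicate 2 it was 0.053.

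PSMB8 (ENSG00000204264, chr6:32840717-32844703) and PSMB9 (ENSG00000240065, chr6:32844136-32859585), the immunoproteasome subunits, were the scarce members. PSMB8 had counts of 70, 69 and 60 in C4-2B, against 51, 76 and 53 in RC4-2B. RC4-2B held both the highest and the lowest library, and the log2 fold change was -0.11 (95% interval -0.62 to 0.40, adjusted p = 0.78, edgeR). Without RC4-2B replicate 2, the high library, it was -0.28 (adjusted p = 0.46), and with the GC correction -0.011.
PSMB9 had counts of 11, 6 and 11 in C4-2B, against 5, 10 and 13 in RC4-2B. At this depth its 95% interval ran from 0.486 to 2.15 times the C4-2B level, so a change smaller than about that size was not detectable. In the deposited table PSMB9 spans all 8770 bases of TAP1 and 568 bases of PSMB8, both on the opposite strand. The exons of PSMB9 and TAP1 share 0 bases in GENCODE release 44 and those of PSMB9 and PSMB8 share 139. The use of strand in counting is not named, so reads of PSMB9 and PSMB8 cannot be told apart in these 139 bases.

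**Figure D2:**
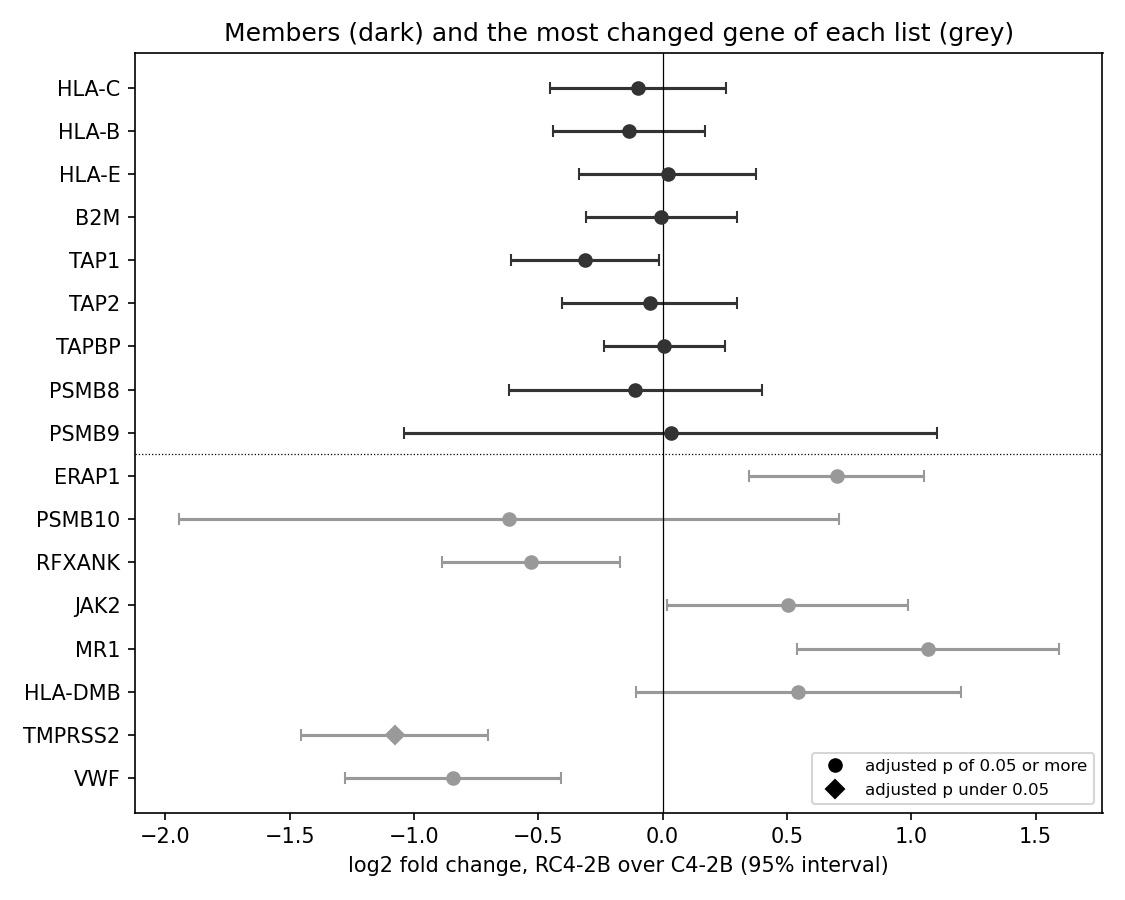
Log2 fold change of RC4-2B over C4-2B (x axis) with 95% intervals from edgeR for the 9 members (dark) and, below the dotted line, the gene with the largest absolute log2 fold change in each of 8 lists (grey), in rows. Among the members only the interval of TAP1 (-0.61 to -0.015) leaves out 0, and the diamond marks TMPRSS2, the one gene drawn with an adjusted p-value under 0.05.

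Levels were compared between genes by FPKM, which is per length. In C4-2B the order was HLA-C at 65.1 ± 1.93, B2M at 27.0 ± 1.61, TAPBP at 15.2 ± 0.582, HLA-B at 11.1 ± 0.251, HLA-E at 8.22 ± 1.15, TAP1 at 5.27 ± 0.0623, TAP2 at 3.07 ± 0.0947, PSMB8 at 1.15 ± 0.110 and PSMB9 at 0.158 ± 0.0515 FPKM (SD, n = 3). HLA-C thus stood 412-fold above PSMB9 by this measure. All neighbours in this order were separate in C4-2B. RC4-2B gave the same order, in which HLA-B at 10.3 ± 1.18 and HLA-E at 8.47 ± 1.01 FPKM (SD, n = 3) overlapped while the other neighbours were separate.

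Ratios within a library do not depend on how libraries are scaled, and 5 of them were compared by a two-sided exact permutation test, whose smallest possible p with 3 libraries against 3 is 0.1. The FPKM of PSMB8 was 0.0129 ± 0.00107 times that of its constitutive counterpart PSMB5 in C4-2B and 0.0120 ± 0.00293 times in RC4-2B (SD, n = 3, exact permutation p = 0.6). PSMB9 stood at 0.00173 ± 0.000549 and 0.00149 ± 0.000747 times PSMB6 (SD, n = 3, exact permutation p = 0.7). Both immunoproteasome subunits were therefore a small fraction of the constitutive ones in every library of both cell lines.
The ratio of TAP1 to TAP2 was 1.65, 1.79 and 1.72 in C4-2B, against 1.44, 1.16 and 1.80 in RC4-2B. RC4-2B replicate 3 lay above all C4-2B libraries and the other RC4-2B libraries below them, so the lower mean in RC4-2B did not exceed its spread (exact permutation p = 0.4). HLA-B stood at 0.171 ± 0.00612 and 0.169 ± 0.0162 times HLA-C (SD, n = 3, exact permutation p = 0.9).
The summed FPKM of HLA-B, HLA-C and HLA-E, which is not the sum of all class I heavy chains, relative to B2M was 3.05, 3.21 and 3.14 in C4-2B, against 3.65, 2.00 and 3.45 in RC4-2B (exact permutation p = 1). RC4-2B replicates 1 and 3 were above every C4-2B library and replicate 2 was far below. The height of this ratio depends on the deposited gene lengths. The log2 difference of this ratio was -0.093 with all libraries and 0.18 without RC4-2B replicate 2 (exact permutation p = 0.1, the smallest that 3 against 2 libraries allow). Without the same library the log2 difference went from -0.25 to -0.092 for TAP1 to TAP2, from -0.13 to -0.32 for PSMB8 to PSMB5 and from -0.022 to -0.080 for HLA-B to HLA-C. With all libraries the 5 adjusted p-values were 1.

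**Figure D3:**
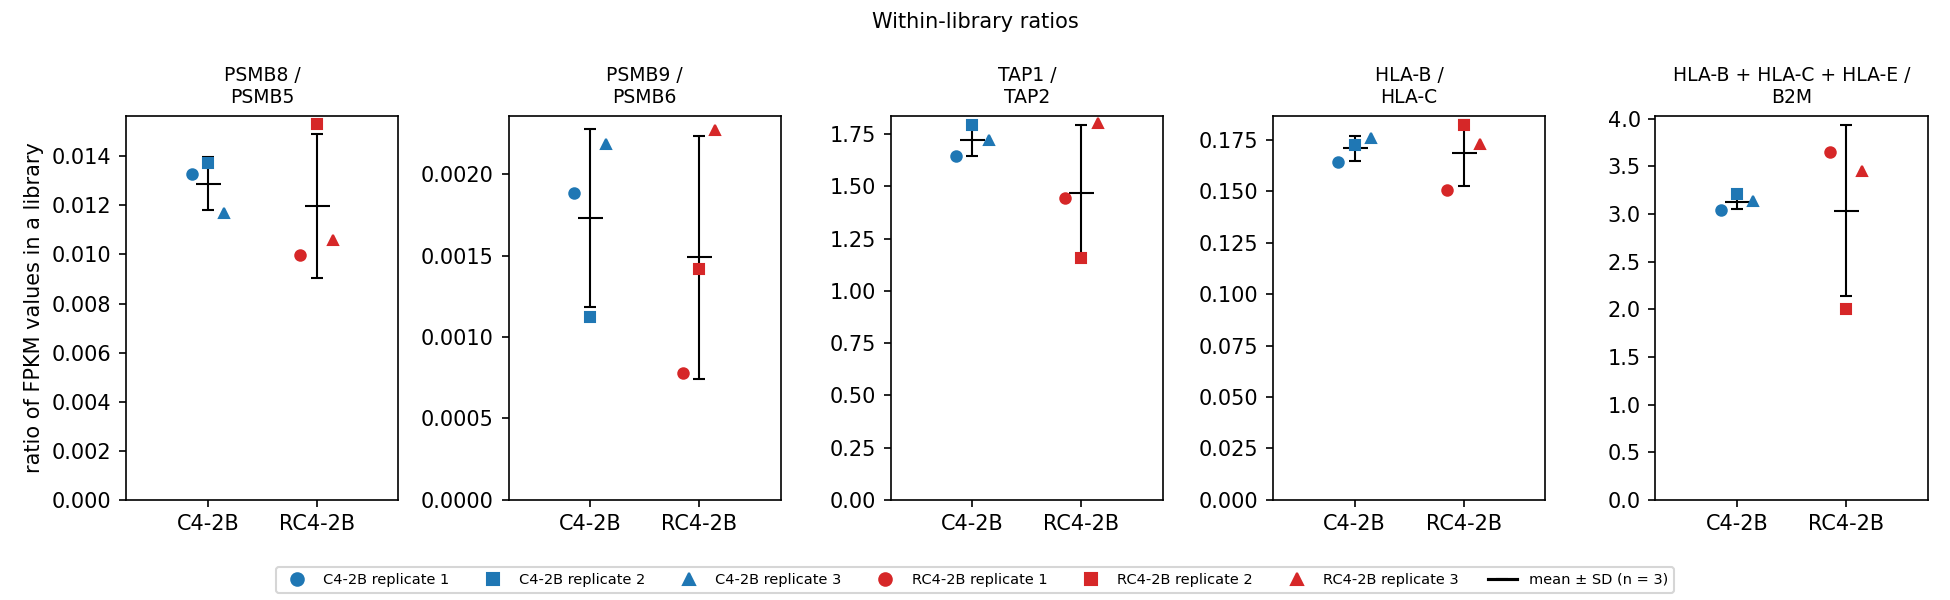
Ratio of FPKM values within each library (y axes, from 0) for 5 gene pairs or sums, in the 3 C4-2B (blue) and 3 RC4-2B (red) libraries, with the mean and SD in black (n = 3). The groups overlap in all 5 panels, and RC4-2B replicate 2, the red square, is the lowest point for TAP1 to TAP2 (1.16) and for the heavy chains to B2M (2.00).

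RC4-2B replicate 2 was the lowest of the 6 libraries in CPM for HLA-B, HLA-C, TAP1 and TAPBP and the highest for B2M, TAP2 and PSMB8. On the log2 scale it differed from the mean of RC4-2B replicates 1 and 3 by -0.53 for HLA-C, whose longest transcript has 62.7% GC, and by 0.38 for B2M, with 38.9% GC. For HLA-B (52.0% GC) the difference was -0.35 and for TAP1 (57.2% GC) -0.25. PSMB8, with 53.8% GC, lay 0.45 above instead. Without this library 0 of the 9 members had an adjusted p-value under 0.05 (edgeR), against 12.5% of all genes then tested, and with the GC correction 0 of 9, against 7.62%.

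**Figure D4:**
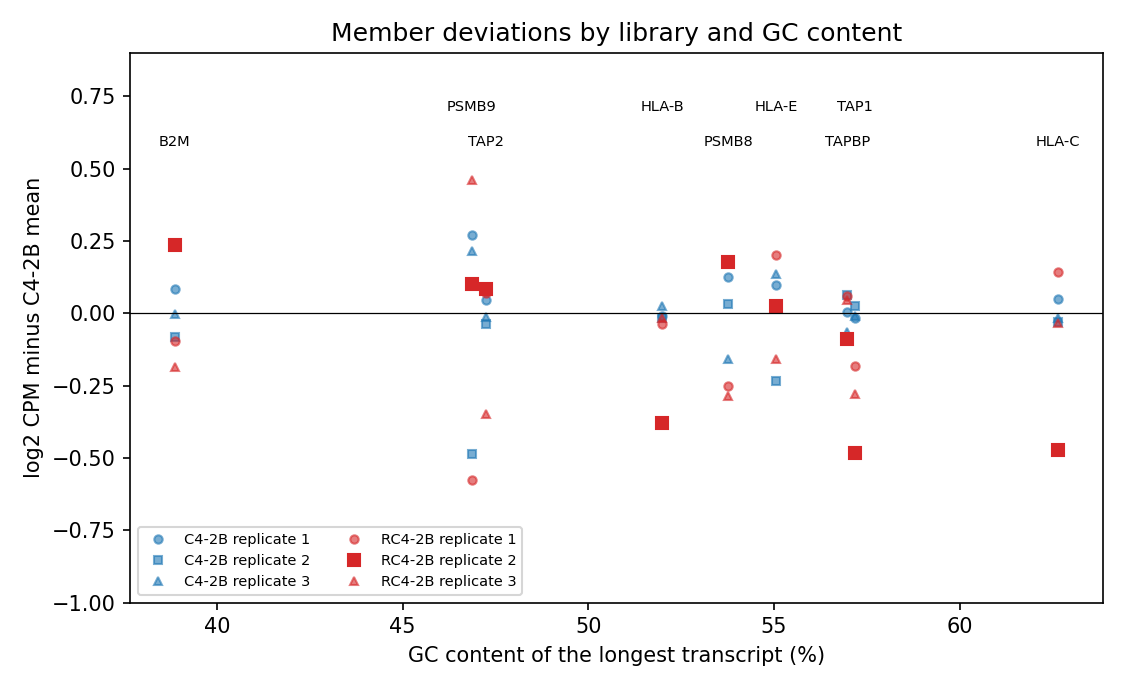
Log2 CPM of each member in each library minus the gene's mean in C4-2B (y axis) against the GC content of its longest transcript in percent (x axis). RC4-2B replicate 2 (large red squares) lies above 0 for B2M at 38.9% GC and below 0 for TAP1 at 57.2% and HLA-C at 62.7%, with HLA-B below 0 and PSMB8 above 0 between them.

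Genes that work with the members were read from lists. Of the 9 peptide loading and trimming partners (chaperones, a translocon subunit and the ER aminopeptidases), all were tested and 0 were called in either direction, with 7 of 9 log2 fold changes above 0 and a median of 0.31, which was 0.17 without RC4-2B replicate 2 and 0.26 with the GC correction. ERAP1, which trims peptides in the endoplasmic reticulum to the length that class I molecules hold, had the largest difference, at 15.2 ± 1.59 CPM in C4-2B against 24.8 ± 3.19 in RC4-2B (SD, n = 3). All 3 RC4-2B libraries were above all C4-2B libraries. The log2 fold change of ERAP1 was 0.70 (adjusted p = 0.062, edgeR), and the adjusted p-value was 0.0063 without RC4-2B replicate 2, 0.023 with the GC correction and 0.0091 with DESeq2, but 0.15 to 0.31 without RC4-2B replicate 3 or any C4-2B library. P4HB, a protein disulfide isomerase named here for its calls, had a log2 fold change of 0.43 (adjusted p = 0.066, edgeR). Its adjusted p-value was 0.0044 without RC4-2B replicate 2, 0.030 with DESeq2, 0.028 without a filter on low counts and 0.035 with the GC correction. P4HB was not called under the other alternatives.

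Of the 8 proteasome counterparts and activators, 0 were called, and their median log2 fold change was 0.023. PSME3 had a log2 fold change of 0.32 (adjusted p = 0.12, edgeR), with an adjusted p-value of 0.023 without RC4-2B replicate 2. PSMB5 stood at 175 ± 9.14 and 176 ± 11.2 CPM and PSMB6 at 147 ± 15.0 and 179 ± 17.6 CPM in C4-2B and RC4-2B (SD, n = 3). PSMB10, the immunoproteasome subunit beside PSMB8 and PSMB9, lay between them per length, at 0.935 ± 0.262 FPKM in C4-2B and 0.617 ± 0.435 in RC4-2B (SD, n = 3). Its log2 fold change of -0.62 (adjusted p = 0.53, edgeR) became -0.12 without RC4-2B replicate 2, which had 4 counts.

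Of the 12 transcription factors that act on class I promoters, 0 were called and the median log2 fold change was 0.0079. This median was -0.0040 without RC4-2B replicate 2. NFYA had a log2 fold change of 0.45 (adjusted p = 0.13, edgeR), with an adjusted p-value of 0.037 without that library. NLRC5, the class I transactivator, stood at 3.16 ± 0.487 CPM in C4-2B against 3.15 ± 1.49 in RC4-2B, and IRF1 at 1.54 ± 0.337 and 1.53 ± 0.389 CPM (SD, n = 3); both are named for their role, with their values already known. RFXANK, a subunit of the RFX complex that NLRC5 needs to bind DNA, had the largest difference, at 43.0 ± 3.93 and 29.7 ± 5.41 CPM, a log2 fold change of -0.53 (adjusted p = 0.12, edgeR). It had an adjusted p-value of 0.029 with RC4-2B replicate 2 and 0.049 with RC4-2B replicate 1 left out, and a log2 fold change of -0.22 with the GC correction. The adjusted p-value of RFXANK was 0.26 to 0.41 without RC4-2B replicate 3 or any C4-2B library.

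In the interferon gamma receptor pathway 7 of 8 genes were tested and 0 were called, with a median log2 fold change of 0.36, which was 0.25 without RC4-2B replicate 2 and 0.20 with the GC correction. JAK2, a kinase of that receptor, had the largest difference (log2 fold change 0.50, adjusted p = 0.22, edgeR), which was 0.32 without RC4-2B replicate 2 and 0.28 with the GC correction. IFNGR1 had a log2 fold change of 0.36 (adjusted p = 0.20, edgeR), with an adjusted p-value of 0.029 without RC4-2B replicate 2.

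Of 11 other class I-like genes and ligands of natural killer cells, 7 were tested, 0 were called, and HLA-G and CD1D had 0 counts in all 6 libraries. MR1, which presents vitamin B metabolites to MAIT cells, had the largest difference, at 2.51 ± 0.474 CPM in C4-2B against 5.27 ± 0.712 in RC4-2B (SD, n = 3). Its counts were 33, 48 and 50 in C4-2B, against 93, 97 and 76 in RC4-2B, without overlap. The log2 fold change of MR1 was 1.07 (adjusted p = 0.060, edgeR). The adjusted p-value was 0.013 without RC4-2B replicate 2 and 0.013 with DESeq2, and 0.11 to 0.27 without RC4-2B replicate 3 or any C4-2B library.

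**Figure D5:**
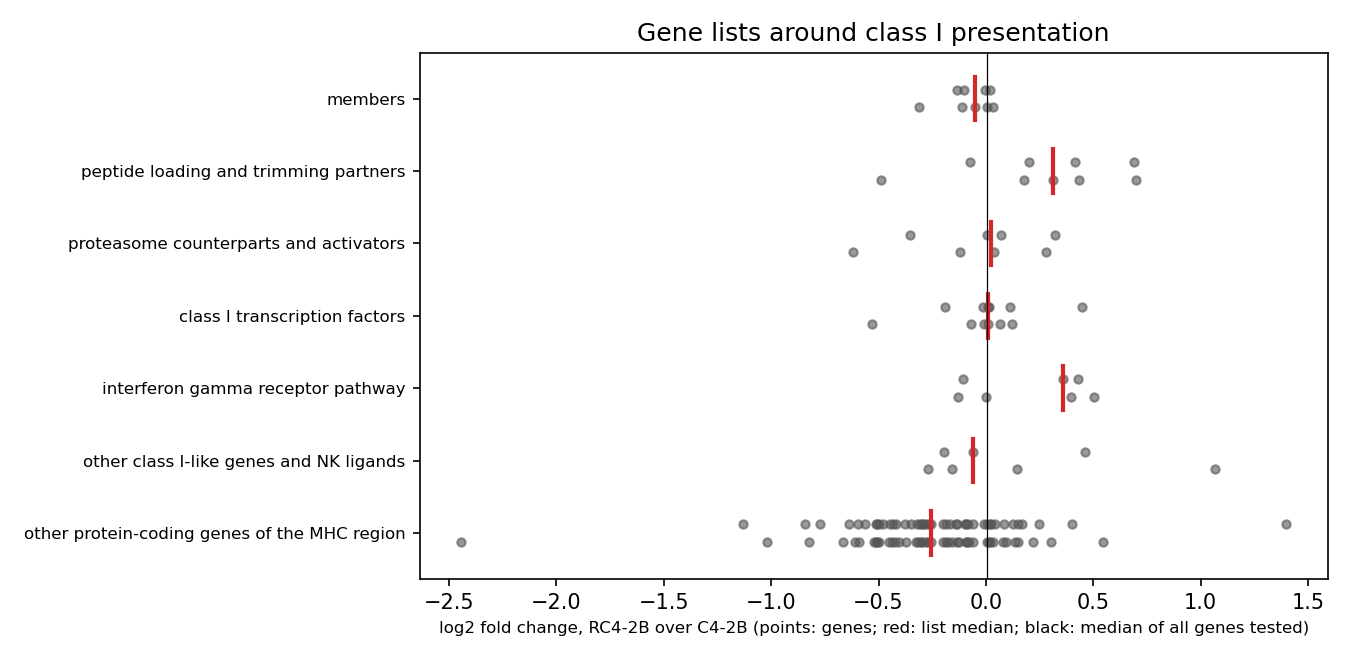
Log2 fold change of RC4-2B over C4-2B (x axis) for each tested gene (points) of the members, 5 lists of related genes and the other protein-coding genes of the MHC region (rows), with the list median in red and the median of all genes tested, 0.0063, as a black line. The members lie within -0.31 and 0.032, and the MHC region has a median of -0.26 that becomes -0.059 with a correction for GC content.

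The label was checked against other cell types. Class II presentation genes were scarce, with 3 of 10 tested (HLA-DMA, HLA-DMB and CIITA), 0 called and HLA-DQA1 at 0 counts in all 6 libraries. The summed counts of the 10 were 97 to 158 per C4-2B library and 177 to 202 per RC4-2B library, without overlap. All 3 tested class II genes had log2 fold changes above 0 (median 0.47), as did 7627 of all 15054 genes tested. HLA-DMB had the largest difference of the 3, a log2 fold change of 0.55 (adjusted p = 0.29, edgeR). The 7 leukocyte markers summed to 3 to 9 counts per C4-2B library and 0 to 5 per RC4-2B library, 6 of them being at or under 3 counts in every library and MS4A1 at 0. Of 6 fibroblast and endothelial markers, COL1A2, DCN and PECAM1 were at 0, and the summed counts of the list were 528 to 623 in C4-2B and 509 to 718 in RC4-2B. COL1A1 had counts of 355, 413 and 443 in C4-2B, against 585, 390 and 464 in RC4-2B. PDGFRB had 48, 37 and 37, against 52, 46 and 49. The log2 fold change of COL1A1 was 0.30 (adjusted p = 0.36, edgeR). Its adjusted p-value was 0.033 without RC4-2B replicate 2 and 0.018 with the GC correction. In that list VWF, an endothelial clotting factor gene, had the largest difference (log2 fold change -0.84, adjusted p = 0.065, edgeR). The adjusted p-value of VWF was 0.013 without RC4-2B replicate 2, 0.048 without RC4-2B replicate 1, 0.016 with DESeq2 and 0.029 without a filter on low counts. It was 0.083 with the GC correction and 0.17 to 0.26 without RC4-2B replicate 3 or any C4-2B library. All 7 prostate epithelial markers were tested, and 1, the androgen-regulated protease gene TMPRSS2, fell, from 184 ± 11.5 to 87.2 ± 18.5 CPM (SD, n = 3), so that the log2 fold change was -1.08 (adjusted p = 0.019, edgeR), with adjusted p-values of 0.12, 0.082 and 0.10 without C4-2B replicate 1, 2 or 3 and of 0.054 without RC4-2B replicate 3.

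All members but B2M lie in the MHC region of chromosome 6. Of 151 other protein-coding genes there, 86 were tested and 0 were called. Their median log2 fold change was -0.26, and 64 of 86 were below 0. With RC4-2B below and no overlap there were 28 of 86, against 17.1% of all genes tested. The tested genes of the region had a median GC content of 55.9%, against 48.2% for all genes tested. The median was -0.12 without RC4-2B replicate 2 and -0.059 with the GC correction. For the 9 members these medians were -0.027 and -0.047.

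The mean profile of the 9 members over the 6 libraries, each gene centred on its own mean, was compared with 12567 other genes whose average log2 CPM was 1 or more. The highest Pearson correlations were those of HOXD13 (0.983), RNF114 (0.972) and PCGF1 (0.971), a description over 6 libraries that share their depth and base composition. They are the highest of 12567 correlations over 6 points, and how high such values lie by chance was not tested. The mean profile itself ran only from -0.047 to 0.11 on the log2 scale. None of these 3 genes had an adjusted p-value under 0.05.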

How the data were processed

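RNAseq libraries of C4-2B and RC4-2B (3 biological replicates each) were analysed. Reads had been mapped by the authors to GRCh38 using STAR, and whole-number read counts per gene were deposited without normalization. FPKM, as deposited, equals these counts over gene length and over 1 constant total per library. The counter, its use of strand, its treatment of multi-mapped reads and the annotation release are not given in the sources used here.

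The main test was run on the counts by edgeR 4.0.16 under R 4.3.3 (TMM, filterByExpr with its minimum of 10 counts, glmQLFit and glmQLFTest, cell line as the only term). P-values were adjusted over all 15054 genes, with a threshold of 0.05. Intervals are 95% intervals of the fit. The fit was tested on simulated data for this comparison, in which 192 of 200 genes changed 4-fold were recovered and 11 of 14591 unchanged genes were called. The simulated libraries held no GC trend like that of RC4-2B replicate 2. Recovery of changes as small as those of the members (log2 fold changes of -0.31 to 0.032) was not tested. No library was a copy of another (chi-square per gene 3.17 to 58.7 between replicates), and p-values measure the spread between these libraries alone.

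The members and lists were chosen with earlier results of these data known. Named are the members, the list genes past the threshold, the most changed gene of each list and the genes of the ratios. Also named are the 3 genes that correlated best with the mean profile of the members, and class II genes and leukocyte markers by their counts. NLRC5, IRF1, P4HB, PSME3, NFYA, IFNGR1, COL1A1 and PDGFRB fall outside this rule and were named after their values were seen. The same holds for the genes listed at 0 in other lists (HLA-G, CD1D, COL1A2, DCN and PECAM1). Alternatives were DESeq2 1.42.0, other scalings and filters, a replicate block, each library left out, limma 3.58.1 on log2(FPKM + 1) and log2(FPKM + 0.1), robust estimation and protein-coding genes alone. A GC correction (lowess, span 0.2, GC of the longest GENCODE release 44 transcript, known for 99.6% of tested genes) was chosen after seeing the data; it also removes a GC trend between the cell lines. Promoters were aligned with Biopython 1.88. Protein sequences were not used here.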

Additional observations from a re-analysis of the deposited data

How the results depend on the processing

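None of the 9 members had an adjusted p-value under 0.05 under any of the 18 alternatives, 17 of them planned and the GC correction chosen after seeing the data. PSMB9 was too low to be tested in both limma fits with a minimum of 1 FPKM in 3 libraries and in the fit with a mean of at least 10 counts. TAP1 stayed below 0 throughout (log2 fold change -0.38 to -0.13, adjusted p = 0.12 to 0.51), as did HLA-B (-0.20 to -0.027) and PSMB8 (-0.28 to -0.011). For members near 0 the sign turned: HLA-C to 0.28 with the GC correction, B2M to 0.0042 with upper-quartile scaling, 0.0090 with limma on log2(FPKM + 1), also without a filter, and 0.0089 on log2(FPKM + 0.1), TAPBP to -0.0028 with DESeq2 and -0.0033 with RLE scaling, and PSMB9 to -0.047 with the GC correction, under which TAPBP was 0.19. PSMB5 turned to -0.0023 with DESeq2 and -0.0028 with RLE scaling. With 1 library left out, the ranges were -0.23 to 0.055 for HLA-C, -0.090 to 0.10 for HLA-E, -0.14 to 0.077 for B2M, -0.13 to 0.075 for TAP2, -0.030 to 0.053 for TAPBP, -0.28 to 0.30 for PSMB9 and -0.040 to 0.049 for PSMB5. The log2 differences of the ratios ranged from -0.080 to 0.056 for HLA-B to HLA-C, -0.25 to 0.18 for the 3 heavy chains to B2M, -0.66 to 0.11 for PSMB9 to PSMB6, -0.32 to -0.013 for PSMB8 to PSMB5 and -0.41 to -0.092 for TAP1 to TAP2.

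The count over all genes, 298, moved to 902 with DESeq2, 1250 without a filter, 104, 86 and 36 in the limma fits (log2(FPKM + 1), log2(FPKM + 0.1) and no filter), 1147 with the GC correction, and 44 to 1925 with 1 library left out, the ends being C4-2B replicate 1 and RC4-2B replicate 2. Of the list genes, 1 was called, against 5 with DESeq2, 5 without a filter, 5 with the GC correction, 0 with limma without a filter and 0 to 10 with 1 library left out (0 without any C4-2B library or RC4-2B replicate 3, 3 with RC4-2B replicate 1 and 10 with RC4-2B replicate 2 left out). Of all genes tested, 1.98% were called in the main fit, 5.93% with DESeq2, 7.62% with the GC correction and 12.5% without RC4-2B replicate 2. The counts of list genes were not tested against these shares. The median of the MHC region moved from -0.26 to -0.059 with the GC correction and to -0.12 without RC4-2B replicate 2. The cause was not tested. With the replicate number as a block, 129 genes were called in place of 298, and 0 of the members. Deviations of same-numbered libraries correlated by 0.31, 0.18 and -0.073, so the numbers were not taken as pairs, and RC4-2B replicate 3 correlated best with C4-2B replicate 1.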
